A study of Mus musculus with 12 samples.

Results

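The platelet-derived growth factor (PDGF) family was described here across palatal shelf libraries of tamoxifen-treated and control mouse embryos. All 6 members named by symbol, the ligand genes Pdgfa, Pdgfb, Pdgfc and Pdgfd and the receptor genes Pdgfra and Pdgfrb, were found among the 24391 gene symbols of the count tables, and all 6 passed the filter on low counts that 15958 genes passed. The palatal shelves are the paired outgrowths that fuse to form the roof of the mouth, and tamoxifen is a selective oestrogen receptor modulator. RNA came from C57BL/6 embryos at E13.5, and there were 3 libraries in each of 4 groups: tamoxifen-treated anterior palate (TAM_AP), control anterior palate (con_AP), tamoxifen-treated posterior palate (TAM_PP) and control posterior palate (con_PP). No transgene, mutant allele or Cre is named for any group, and dose, route and timing of the drug, the treatment of the controls, and whether a library holds 1 embryo or several are not given in the labels. The series is titled for cleft palate induced by tamoxifen, and the comparisons address which palate transcripts differed under the drug in each part of the shelf.

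PDGF ligands are secreted dimers that bind a pair of receptor tyrosine kinases at the cell surface. PDGF-A and PDGF-C act mainly through the alpha receptor, PDGF-B binds both receptors, and PDGF-D acts mainly through the beta receptor. In the face the alpha receptor is carried by neural crest-derived mesenchyme and its ligands are made largely by the overlying epithelium, and mice without Pdgfc, or without Pdgfra in the neural crest, can develop a cleft palate. The beta receptor is best known from pericytes and vascular smooth muscle, which PDGF-B from endothelial cells recruits.

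The sequences just upstream of RefSeq start sites are shown for the members that had an entry, 4 of the 6. These are also the 4 members whose levels differed with treatment in the counts. Which start sites were in use was not tested. The sequences come from RefSeq on build GRCm38.p6 and not from the build of the counts. Pdgfb and Pdgfrb are named only. Each is written 5′ to 3′ on the strand of the gene, with a found motif in capitals, and is cut where the first annotated transcript begins, which makes the Pdgfa and Pdgfd windows shorter. The Pdgfc window, chr3:81036166-81036415 on the plus strand, runs up to the start site and holds a CArG box, the binding motif of serum response factor, at position -17 counted from it. The Pdgfra window, chr5:75152001-75152250 on the plus strand, holds no match to the motifs searched. The Pdgfa window, chr5:138995038-138995194 on the minus strand, holds none either. The Pdgfd window, chr9:6168236-6168362 on the plus strand, holds the motif TGACC at positions -238 and -193 and TATAAA at position -160, counted from the start site of its window.
Pdgfc: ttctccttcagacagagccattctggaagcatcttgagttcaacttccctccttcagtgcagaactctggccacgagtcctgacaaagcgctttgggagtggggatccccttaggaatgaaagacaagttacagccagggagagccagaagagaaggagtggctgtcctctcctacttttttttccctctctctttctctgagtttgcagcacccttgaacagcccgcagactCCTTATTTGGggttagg
Pdgfra: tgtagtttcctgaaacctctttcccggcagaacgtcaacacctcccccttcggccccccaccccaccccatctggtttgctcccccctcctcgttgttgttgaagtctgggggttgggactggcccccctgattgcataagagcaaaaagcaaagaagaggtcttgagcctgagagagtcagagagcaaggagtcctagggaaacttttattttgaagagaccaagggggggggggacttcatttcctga
Pdgfa: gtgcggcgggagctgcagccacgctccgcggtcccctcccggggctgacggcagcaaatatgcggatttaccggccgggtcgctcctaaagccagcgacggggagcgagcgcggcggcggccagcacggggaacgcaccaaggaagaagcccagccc
Pdgfd: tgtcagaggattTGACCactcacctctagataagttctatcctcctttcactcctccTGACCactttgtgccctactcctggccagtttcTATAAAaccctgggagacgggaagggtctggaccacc

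The motifs were searched on both strands in all 32851 RefSeq windows of 300 bases, which run from 250 bases before to 50 bases after a start site. The palindromic oestrogen response element GGTCANNNTGACC, which contains GGTCA and its reverse complement TGACC, lay in 0.07% of all windows and in none of the windows of the 4 members. GGTCA on either strand lay in 40.5% of windows, TATAAA in 13.6% and the CArG box in 1.63%. A Pdgfa window at another start site, not printed, holds TGACC at position -84. These matches describe the letters in the windows and are not binding sites shown by these data.

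The libraries summed to between 39.4 M and 73.0 M counts, TAM_AP replicate 1 being the deepest and the next one at 50.2 M. Levels are given as CPM, the counts of a gene per 1 M counts of its library, scaled by the trimmed mean of M values (TMM). Defining markers of each other cell type considered were above 0 in all 12 libraries. The mesenchyme markers Prrx1, at 386 to 1370 CPM, and Twist1, at 421 to 805 CPM, were high throughout. Summed skeletal muscle markers (8 genes) stood at 6.74 to 10.4 CPM in TAM_AP and 8.43 to 29.2 CPM in con_AP, against 844 to 1141 CPM in TAM_PP and 676 to 769 CPM in con_PP, so muscle RNA was present mainly in the posterior samples. Genes were tested with edgeR's quasi-likelihood test, and a gene was called where its p, adjusted over the 15958 genes by the Benjamini-Hochberg method, was under 0.05. Nothing in the labels says that replicates are separate embryos or litters, so a p-value here stands only for the spread of libraries within groups, which may be technical. That spread was estimated from all 12 libraries together, so leaving out an anterior library can change a posterior call. In whole tissue, fewer cells of a type and less RNA per cell cannot be told apart.

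Of the ligands, Pdgfa fell under tamoxifen in the anterior palate. Pdgfa had 49.7, 42.5 and 40.8 CPM in the TAM_AP libraries and 54.1, 58.3 and 62.7 CPM in the con_AP libraries. The groups did not overlap. The means were 44.3 ± 4.71 and 58.3 ± 4.31 CPM (SD, n = 3 each), a log2 fold change of -0.39 ± 0.09 (SE, edgeR adjusted p = 0.0021), which was not called once a trend in transcript length and GC content, described after the receptors, was removed (edgeR adjusted p = 0.11). In the posterior palate Pdgfa had 37.3, 31.4 and 35.2 CPM in TAM_PP libraries and 40.7, 36.1 and 38.9 CPM in con_PP libraries. These values overlapped, and the log2 fold change of -0.16 had a 95% interval of -0.35 to 0.04 (edgeR adjusted p = 0.22).

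Pdgfc rose under tamoxifen in both parts of the palate. Its TAM_AP libraries held 105, 117 and 87.1 CPM, against 71.1, 78.8 and 69.1 CPM in the con_AP libraries. All TAM_AP values were above all con_AP values, and the fold change was 1.41 (log2 0.50 ± 0.09 SE, edgeR adjusted p = 0.00036, n = 3 each). In the posterior palate Pdgfc had 106, 98.9 and 103 CPM in TAM_PP libraries and 84.7, 82.7 and 91.1 CPM in con_PP libraries. The groups did not overlap there either, with a fold change of 1.19 (log2 0.25 ± 0.09 SE) that lay just inside the threshold (edgeR adjusted p = 0.048). The posterior call of Pdgfc was lost without any 1 of 9 libraries, namely TAM_AP replicate 1 (adjusted p = 0.070), con_AP replicates 1 and 2 (0.067 and 0.062), TAM_PP replicates 1, 2 and 3 (0.15, 0.067 and 0.10) and con_PP replicates 1, 2 and 3 (0.13, 0.13 and 0.067), all from edgeR. It was also lost in 6 other settings, among them edgeR with RLE scaling (adjusted p = 0.050) and with counts divided by 2 (adjusted p = 0.050), while DESeq2 kept it (adjusted p = 0.039).

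Pdgfd, the lowest member, had the largest fold changes of the 6 under tamoxifen. TAM_AP libraries held 3.39, 3.89 and 2.42 CPM, from 252, 174 and 109 counts, and con_AP libraries 1.39, 1.67 and 1.92 CPM, from 56, 69 and 82 counts. The lowest TAM_AP value was above the highest con_AP value, and the fold change was 1.95 (log2 0.96 ± 0.23 SE, edgeR adjusted p = 0.0021, n = 3 each). TAM_PP libraries held 4.81, 3.59 and 4.31 CPM and con_PP libraries 2.86, 2.29 and 1.93 CPM. The posterior groups did not overlap, and the fold change was 1.79 (log2 0.84 ± 0.22 SE, edgeR adjusted p = 0.0098). Without con_PP replicate 3 the posterior call of Pdgfd was lost, at a log2 fold change of 0.72 (edgeR adjusted p = 0.054).

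Pdgfb, the ligand of both receptors, was not called for treatment in either part of the palate before removal of the length and GC trend. After the removal it was called higher in both. The log2 fold changes were then 0.23 in the anterior palate (edgeR adjusted p = 0.039) and 0.41 in the posterior palate (edgeR adjusted p = 0.0033). The values that follow are without the removal. Its libraries held 18.7, 14.7 and 18.7 CPM in TAM_AP and 18.3, 20.4 and 22.9 CPM in con_AP, with a log2 fold change of -0.24 and a 95% interval of -0.51 to 0.03 (edgeR adjusted p = 0.13). They held 19.0, 20.2 and 22.2 CPM in TAM_PP and 20.5, 15.1 and 17.8 CPM in con_PP, with a log2 fold change of 0.20 and an interval of -0.07 to 0.47 (edgeR adjusted p = 0.25). Both pairs of groups overlapped. The endothelial markers (11 genes), which mark the usual source of PDGF-B, summed to 637 to 689 CPM in TAM_AP and 596 to 651 CPM in con_AP, and to 700 to 747 CPM in TAM_PP and 627 to 668 CPM in con_PP. Of these 11 genes, 6 rose and 4 fell in the anterior palate, and 6 rose and 2 fell in the posterior palate, where 25.6% of all genes rose and 24.0% fell in the anterior palate and 17.3% and 11.7% in the posterior palate. For these markers, removal of the same trend gave 4 higher and 2 lower in the anterior palate, where 32.0% of all genes were then called. It gave 5 higher and 0 lower in the posterior palate, where 17.8% were. The posterior falls were 0 without con_PP replicate 1, con_PP replicate 3, TAM_PP replicate 1 or TAM_PP replicate 2, and 1 without TAM_PP replicate 3. Their part in the Pdgfb values was not tested.

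**Figure D1:**
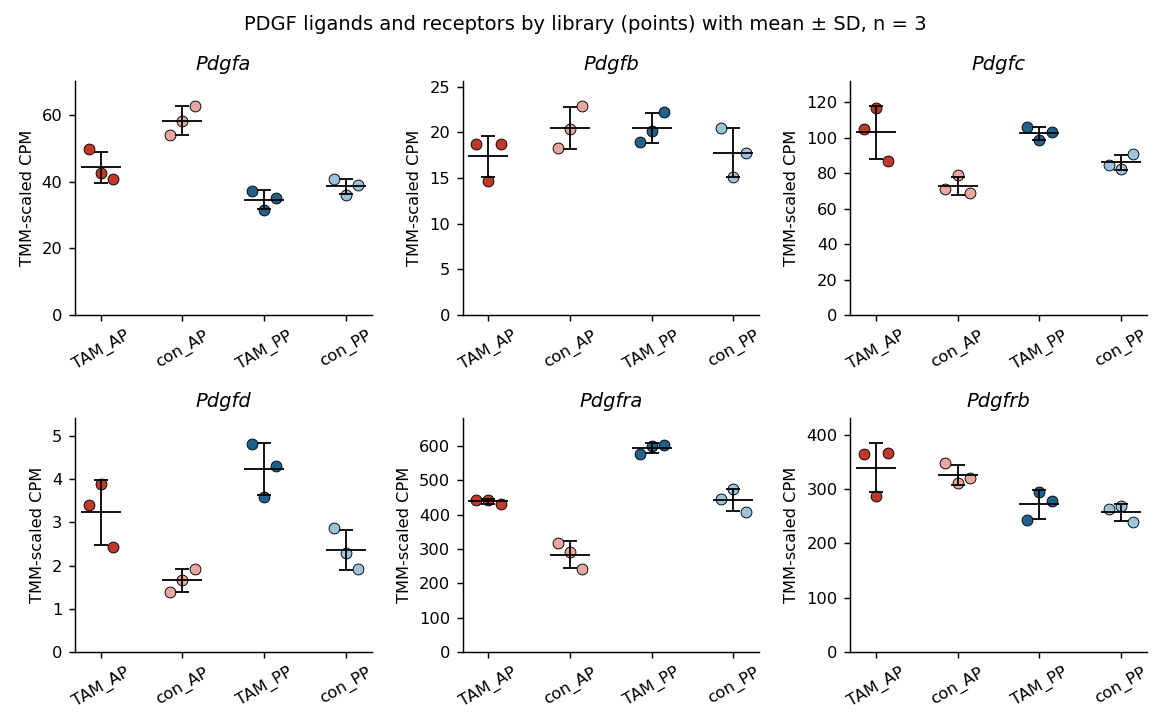
TMM-scaled CPM (y axis, linear, from 0, own scale per panel) of the 6 PDGF genes in the 4 groups (x axis). Points are libraries, bars are the mean and SD over 3 libraries. Pdgfra runs from 242 CPM in a con_AP library to 605 CPM in a TAM_PP library, and TAM_AP values of Pdgfc and Pdgfd lie above all con_AP values.

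Of the receptors, Pdgfra rose under tamoxifen in both parts of the palate. The TAM_AP libraries held 443, 443 and 430 CPM and the con_AP libraries 319, 290 and 242 CPM. The TAM_AP values lay close together and above all con_AP values. The means were 439 ± 7.43 and 284 ± 39.1 CPM (SD, n = 3 each), a fold change of 1.55 (log2 0.63 ± 0.09 SE, edgeR adjusted p = 3.9e-05). TAM_PP libraries held 577, 602 and 605 CPM and con_PP libraries 445, 474 and 409 CPM. These groups did not overlap, and the fold change was 1.34 (log2 0.43 ± 0.09 SE, edgeR adjusted p = 0.0032). Both calls of Pdgfra ended when a trend in transcript length and GC content was removed, with log2 fold changes of 0.12 (edgeR adjusted p = 0.13) and 0.10 (edgeR adjusted p = 0.26).

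Pdgfrb was not called for treatment. It had 365, 287 and 366 CPM in TAM_AP libraries and 347, 310 and 320 CPM in con_AP libraries, and 243, 294 and 278 CPM in TAM_PP libraries and 262, 268 and 240 CPM in con_PP libraries. Both pairs overlapped. The log2 fold change was 0.06 in the anterior palate, with a 95% interval of -0.15 to 0.27 (edgeR adjusted p = 0.65), and 0.08 in the posterior palate, with an interval of -0.13 to 0.29 (edgeR adjusted p = 0.56). Without TAM_AP replicate 3 the anterior value turned to -0.002. The pericyte and smooth muscle markers (11 genes), which mark the cells best known for the beta receptor, summed to 441 to 555 CPM in TAM_AP and 494 to 515 CPM in con_AP, and to 698 to 821 CPM in TAM_PP and 630 to 660 CPM in con_PP. These sums mix genes that, in controls, ran in opposite directions between the parts. In controls 4 were called higher in the anterior part, among them Kcnj8 and Rgs5, and 2 lower, Des and Acta2. Over all genes 10.2% were higher and 13.1% lower in that comparison. The 4 higher became 2 without con_AP replicate 3 or con_PP replicate 3. Under tamoxifen 0 of the markers were called higher in the anterior part and 2 lower, again Des and Acta2. Over all genes 7.6% were then higher and 10.2% lower. What the muscle RNA of the posterior samples adds to the sums was not tested. In the posterior palate 4 of the 11 rose and 0 fell, among them the pericyte gene Rgs5, at 9.44 to 14.4 CPM in TAM_PP and 5.13 to 6.40 CPM in con_PP, while 2 rose and 3 fell in the anterior palate. Over all genes 17.3% rose and 11.7% fell in the posterior palate, and 25.6% rose and 24.0% fell in the anterior palate. Removal of the length and GC trend gave 7 higher and 0 lower in the posterior palate, where 1219 of all 15852 genes were higher and 1597 lower. It gave 2 higher and 0 lower in the anterior palate, where 2492 of all genes were higher and 2583 lower. The anterior rises were 1 without con_AP replicate 1, con_AP replicate 3, TAM_AP replicate 2, TAM_AP replicate 3, con_PP replicate 3 or TAM_PP replicate 2, and the anterior falls were 1 without con_AP replicate 3 or TAM_AP replicate 2. What these cells contribute to the Pdgfrb level was not tested.

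In the anterior palate 4 of the 6 members were called, 3 higher and 1 lower, where 49.7% of all tested genes were called, 25.6% higher and 24.0% lower. In the posterior palate 3 of 6 were called, all higher, where 29.0% of all genes were called, 17.3% higher and 11.7% lower. The median log2 fold change over the members was 0.28 in the anterior palate and 0.23 in the posterior palate, against -0.02 and 0.02 over all genes. The count of 4 in the anterior palate held with each of the 12 libraries left out, while the posterior count was 1 to 3, with 1 without con_PP replicate 3. The share of all genes called was high, so the count of members alone does not set the family apart.

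The part of the fold change that goes with transcript length and base composition was measured for each member, because counts in the tamoxifen libraries ran along a different trend with these properties than counts in the control libraries. Length and GC content were those of the longest GENCODE transcript of each symbol. Pdgfra, at 6834 bases, is longer than 90.4% of tested genes, Pdgfb, at 60.0% GC, has a higher GC content than 95.1% of them, and Pdgfd, at 39.9% GC, a higher one than only 5.4%. The fitted trend gave Pdgfra a log2 shift of 0.52 in the anterior and 0.33 in the posterior palate, gave Pdgfb -0.47 in the anterior palate, and gave Pdgfc 0.00 in the anterior palate.

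With the trend removed, Pdgfra was no longer called, as given above. The anterior fall of Pdgfa became -0.17 (edgeR adjusted p = 0.11). Pdgfc stayed called in the anterior palate, at 0.50 (edgeR adjusted p = 0.0012), and not in the posterior palate, at 0.22 (edgeR adjusted p = 0.12). Pdgfd stayed called in both, at 0.76 (edgeR adjusted p = 0.013) and 0.72 (edgeR adjusted p = 0.025). Pdgfb turned to a rise in the anterior palate, at 0.23 (edgeR adjusted p = 0.039), and was called higher in the posterior palate, at 0.41 (edgeR adjusted p = 0.0033). Pdgfrb had 0.02 and 0.01 (edgeR adjusted p = 0.86 and 0.92). That gives 3 members called in the anterior palate, where 32.0% of all genes were called, and 2 in the posterior palate, where 17.8% were. The posterior split over all genes was then 1219 higher and 1597 lower, against 2762 higher and 1863 lower without the removal. Whether the trend arose in the tissue or in the libraries was not tested.

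**Figure D2:**
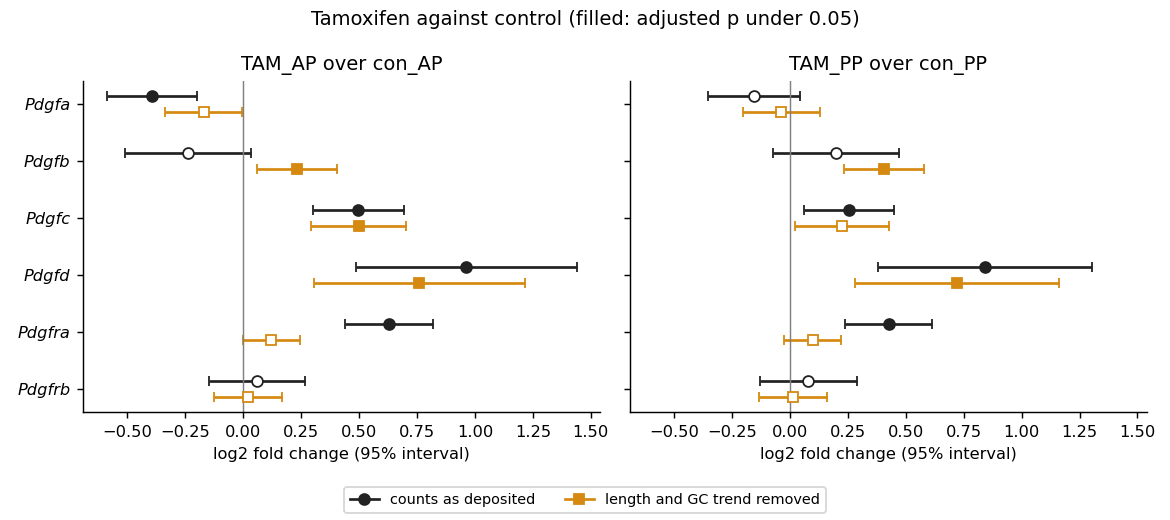
Log2 fold change of tamoxifen against control (x axis) for the 6 PDGF genes in the anterior and posterior palate, with 95% intervals, from the counts and with the trend in transcript length and GC content removed. After removal of the trend Pdgfra has 0.12 in the anterior palate in place of 0.63, Pdgfb has 0.23 in place of -0.24, and Pdgfc stays at 0.50.

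The test of the difference between the anterior and posterior effects of tamoxifen called 0 of the 6 members and 0% of all tested genes with edgeR. At an unadjusted p under 0.05 there were 1 member and 2110 genes, and DESeq2 called 0 members and 183 genes. The lowest member p was that of Pdgfb, with a difference of -0.44 on the log2 scale and a 95% interval of -0.82 to -0.06 (edgeR adjusted p = 0.34). The intervals of the other members were -0.52 to 0.04 for Pdgfa, -0.03 to 0.52 for Pdgfc, -0.54 to 0.78 for Pdgfd, -0.06 to 0.47 for Pdgfra and -0.32 to 0.27 for Pdgfrb (edgeR adjusted p from 0.43 to 0.96).

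Between the parts of the palate, Pdgfra was lower and Pdgfa and Pdgfrb higher in the anterior part, under both conditions. In control libraries Pdgfra had 319, 290 and 242 CPM in con_AP and 445, 474 and 409 CPM in con_PP, 1.56-fold lower in the anterior part (log2 -0.64 ± 0.09 SE, edgeR adjusted p = 5.2e-05, n = 3 each). Under tamoxifen it had 443, 443 and 430 CPM in TAM_AP and 577, 602 and 605 CPM in TAM_PP, 1.36-fold lower in the anterior part (log2 -0.44 ± 0.09 SE, edgeR adjusted p = 0.0019). Neither pair overlapped. Ordered by level, Pdgfra was highest in TAM_PP, followed by con_PP and TAM_AP, whose libraries overlapped, and lowest in con_AP.

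Pdgfa was 1.51-fold higher in con_AP, at 58.3 ± 4.31 CPM, than in con_PP, at 38.6 ± 2.31 CPM (SD, n = 3 each, log2 0.60 ± 0.09 SE, edgeR adjusted p = 0.00015). It was 1.28-fold higher in TAM_AP, at 44.3 ± 4.71 CPM, than in TAM_PP, at 34.7 ± 2.98 CPM (log2 0.36 ± 0.09 SE, edgeR adjusted p = 0.012). The groups overlapped in neither comparison. Its levels ran in the order con_AP, TAM_AP, con_PP and TAM_PP, and only the libraries of con_PP and TAM_PP overlapped between neighbours, though 40.8 CPM in a TAM_AP library lay next to 40.7 CPM in a con_PP library. Under tamoxifen the regional call of Pdgfa was lost without TAM_AP replicate 1 (edgeR adjusted p = 0.095) or TAM_PP replicate 2 (edgeR adjusted p = 0.079). The epithelial markers (10 genes), which mark a known source of PDGF-A, summed to 944 to 1181 CPM in TAM_AP and 620 to 808 CPM in TAM_PP, and to 959 to 1203 CPM in con_AP and 558 to 620 CPM in con_PP. Of these 10 genes, 8 were higher in the anterior part under tamoxifen, or 4 without TAM_AP replicate 1 or TAM_PP replicate 2, and 7 in controls, with 0 lower. Over all genes 7.6% were higher in the anterior part under tamoxifen and 10.2% in controls. The part of the epithelial markers in the regional difference of Pdgfa was not tested.

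Pdgfrb was 1.27-fold higher in con_AP, at 326 ± 19.0 CPM, than in con_PP, at 257 ± 15.2 CPM (SD, n = 3 each, log2 0.34 ± 0.10 SE, edgeR adjusted p = 0.017), with no overlap. It was 1.25-fold higher in TAM_AP, at 339 ± 45.7 CPM, than in TAM_PP, at 272 ± 26.2 CPM (log2 0.32 ± 0.10 SE, edgeR adjusted p = 0.029), and there the groups overlapped. The control call was lost without con_AP replicate 1 (edgeR adjusted p = 0.11) or con_PP replicate 3 (0.087). The call under tamoxifen was lost without TAM_AP replicate 1 (edgeR adjusted p = 0.15), TAM_AP replicate 3 (0.12), con_AP replicate 2 (0.050), TAM_PP replicate 1 (0.14) or TAM_PP replicate 3 (0.065). With only the 6 tamoxifen libraries fitted it was not called either (edgeR adjusted p = 0.097). In order of level the anterior groups stood above the posterior groups, and within each part of the palate the treated and control libraries overlapped.

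Pdgfb, Pdgfc and Pdgfd were not called between the parts of the palate. Pdgfc had a log2 difference of -0.24 in controls (edgeR adjusted p = 0.074), with no overlap between con_AP and con_PP, and 0.00 under tamoxifen, with a 95% interval of -0.19 to 0.20 (edgeR adjusted p = 0.99). The control value of Pdgfc passed the threshold with DESeq2 (adjusted p = 0.047), with only the 6 control libraries (edgeR adjusted p = 0.037), and without con_AP replicate 2 (0.033), TAM_AP replicate 1 (0.048), 2 (0.017) or 3 (0.016), or TAM_PP replicate 1 (0.042). Pdgfd had log2 differences of -0.39 under tamoxifen and -0.51 in controls (edgeR adjusted p = 0.25 and 0.12). Pdgfb had -0.23 under tamoxifen and 0.20 in controls (edgeR adjusted p = 0.24 and 0.27). In order of level Pdgfc was lowest in con_AP, and the libraries of TAM_AP overlapped those of TAM_PP and of con_PP. Pdgfd ran in the order TAM_PP, TAM_AP, con_PP and con_AP, and TAM_AP overlapped both of its neighbours. The groups of Pdgfb overlapped with their neighbours throughout its order.

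Each of these comparisons called 3 of the 6 members, 2 higher and 1 lower in the anterior part. Over all genes 17.8% were called under tamoxifen, 7.6% higher and 10.2% lower, and 23.3% in controls, 10.2% higher and 13.1% lower. With the trend in length and GC content removed the same 3 members were called in both. Pdgfra then had -0.45 under tamoxifen and -0.48 in controls, Pdgfrb had 0.46 and 0.45, and Pdgfa 0.40 and 0.54 (edgeR adjusted p at most 0.001), where 25.0% and 27.1% of all genes were called. The split over all genes under tamoxifen was then 2187 higher and 1780 lower, against 1213 higher and 1633 lower without the removal. The tamoxifen and regional comparisons share libraries, so they are not independent of each other. Leaving out 1 library gave 1 to 3 members called under tamoxifen, with 1 without TAM_AP replicate 1, and 2 to 4 in controls.

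**Figure D3:**
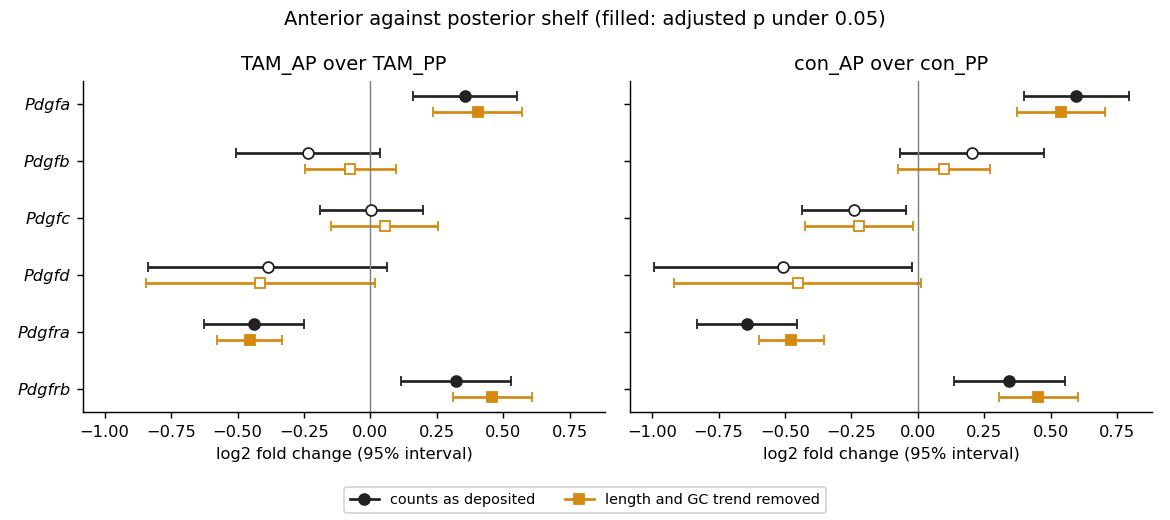
Log2 fold change of anterior against posterior palate (x axis) for the 6 PDGF genes under tamoxifen and in controls, with 95% intervals, from the counts and with the trend in transcript length and GC content removed. Pdgfra lies below 0 and Pdgfa and Pdgfrb above 0 in both conditions and with either processing.

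To compare levels between members, CPM were divided by the length of the longest transcript in kilobases. Per kilobase, Pdgfra stood at 64.2 CPM in TAM_AP and 41.5 CPM in con_AP, and at 87.0 CPM in TAM_PP and 64.8 CPM in con_PP. Pdgfrb stood at 62.6, 60.1, 50.1 and 47.4 CPM per kilobase in TAM_AP, con_AP, TAM_PP and con_PP. The ratio of Pdgfra to Pdgfrb per kilobase was therefore 1.04 ± 0.161 in TAM_AP and 0.690 ± 0.0796 in con_AP, and 1.75 ± 0.131 in TAM_PP and 1.37 ± 0.0299 in con_PP (SD, n = 3 each). The libraries did not overlap in either pair, with 0.932 to 1.23 in TAM_AP and 0.598 to 0.742 in con_AP. This ratio rests on the Pdgfra values above, which were not called for treatment once the length and GC trend was removed.

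Among the ligands, Pdgfc and Pdgfa made up most of the summed level per kilobase, and Pdgfd the least. Pdgfc held 50.6 ± 4.01% of the sum in TAM_AP and 36.7 ± 2.72% in con_AP, and 53.8 ± 0.883% in TAM_PP and 49.0 ± 2.12% in con_PP (SD, n = 3 each). Pdgfa held 37.3 ± 2.58% in TAM_AP and 50.1 ± 1.78% in con_AP, and 30.9 ± 1.25% in TAM_PP and 37.5 ± 0.740% in con_PP. Per kilobase, Pdgfc was thus the leading ligand transcript in TAM_AP, TAM_PP and con_PP, and Pdgfa in con_AP. Before division by length Pdgfc was above Pdgfa in con_AP as well, at 73.0 against 58.3 CPM. The lead of Pdgfa there rests on the lengths used, 2060 bases for Pdgfa and 3521 for Pdgfc. Which transcripts were expressed was not tested. The anterior fall of Pdgfa was not called once the length and GC trend was removed. Pdgfb held 10.3, 12.3, 12.8 and 12.1% and Pdgfd 1.78, 0.934, 2.48 and 1.51% in TAM_AP, con_AP, TAM_PP and con_PP. The summed ligand level was 57.7 ± 5.28 CPM per kilobase in TAM_AP and 56.5 ± 3.00 in con_AP, and 54.3 ± 2.60 in TAM_PP and 50.0 ± 2.71 in con_PP. These shares and ratios are a description and were not tested.

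**Figure D4:**
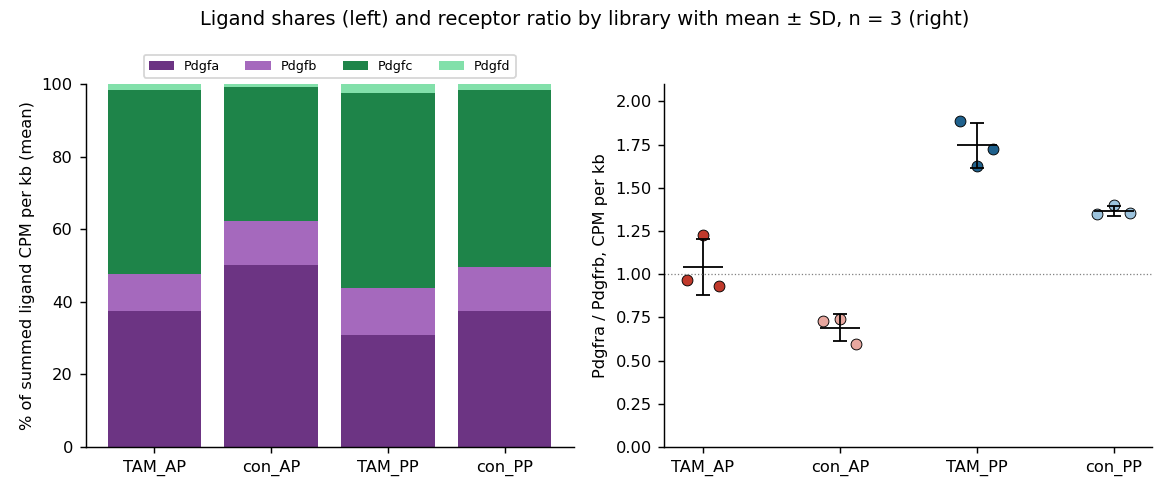
Share of each ligand in the summed ligand CPM per kilobase (left, percent, mean over 3 libraries) and ratio of Pdgfra to Pdgfrb per kilobase (right, points are libraries, bars the mean and SD) in the 4 groups. Pdgfc takes 50.6% in TAM_AP against 36.7% in con_AP, and the receptor ratio is highest in TAM_PP, at 1.75.

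Genes that process or bind PDGF ligands (10 tested) rose in 3 cases in each part of the palate, and 0 fell, where 25.6% of all genes rose in the anterior and 17.3% in the posterior palate. After removal of the length and GC trend 2 rose and 0 fell in the anterior palate, where 32.0% of all genes were called. In the posterior palate 3 rose and 1 fell, where 17.8% were called. The 3 that rose before the removal were Nrp1, Pcsk5 and Plat in both. Nrp1, a co-receptor of several growth factors, had 183 ± 1.83 CPM in TAM_AP and 131 ± 6.44 CPM in con_AP (log2 0.48 ± 0.07 SE, edgeR adjusted p = 3.8e-05), and rose 1.28-fold in the posterior palate. Pcsk5, a proprotein convertase of the kind that cuts PDGF-A and PDGF-B precursors, rose 1.38-fold in the anterior and 1.39-fold in the posterior palate. Plat, tissue plasminogen activator, which releases active PDGF-C by cutting off its CUB domain, had 26.0 ± 2.89 CPM in TAM_AP and 20.6 ± 2.30 CPM in con_AP (1.26-fold, edgeR adjusted p = 0.018), and 28.2 ± 3.23 CPM in TAM_PP and 21.0 ± 1.02 CPM in con_PP (1.34-fold, edgeR adjusted p = 0.0096). The calls of Plat were lost with the trend removed, at 0.07 and 0.25 on the log2 scale. They were also lost without TAM_AP replicate 1 (anterior, edgeR adjusted p = 0.094), con_AP replicate 2 (anterior, 0.075) or TAM_PP replicate 1 (posterior, 0.067), while those of Nrp1 and Pcsk5 stayed in every setting run. Between the parts, Nrp1 and Pcsk5 were higher in the anterior palate, by 1.60-fold and 1.36-fold under tamoxifen and 1.46-fold and 1.38-fold in controls. Sparc, a matrix protein that binds PDGF-B, was lower there, by 0.81 under tamoxifen and 0.63 in controls on the log2 scale, also called in every setting.

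Ligands and receptors of the related class III and VEGF families (15 tested) rose in 3 cases and fell in 3 in the anterior palate, and rose in 4 and fell in 1 in the posterior palate. Over all genes 25.6% rose and 24.0% fell in the anterior palate, and 17.3% and 11.7% in the posterior palate. The posterior fall was lost without con_PP replicate 1, con_PP replicate 3, TAM_PP replicate 1 or TAM_PP replicate 3. Trend removal left 1 higher and 1 lower in the anterior palate and 1 higher and 0 lower in the posterior palate, where 32.0% and 17.8% of all genes were called. Figf, which encodes VEGF-D, fell to 1.84 ± 0.208 CPM in TAM_AP, against 4.94 ± 0.703 CPM in con_AP (log2 -1.42 ± 0.19 SE, edgeR adjusted p = 2.1e-05), and the value was -1.40 with the trend removed. In the posterior palate it had 2.39 ± 0.343 CPM in TAM_PP and 2.47 ± 0.280 CPM in con_PP (edgeR adjusted p = 0.88). The VEGF receptor genes Flt1 and Kdr, which are also among the endothelial markers, rose 1.52-fold and 1.38-fold in the anterior palate and 1.41-fold and 1.22-fold in the posterior palate, and Kdr was not called in either once the trend was removed. Vegfb fell by 0.64 on the log2 scale in the anterior palate and had -0.02 with the trend removed. Pdgfrl, a gene named for its likeness to the PDGF receptors, had 7.09 CPM in TAM_AP and 14.5 CPM in TAM_PP, and 7.64 CPM in con_AP and 13.8 CPM in con_PP, lower in the anterior part in both (edgeR adjusted p = 1.7e-05 and 0.00013).

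Adaptors and effectors that bind activated PDGF receptors (24 tested) rose in 14 cases and fell in 3 in the anterior palate, with a median log2 fold change of 0.31. They rose in 12 cases and fell in 0 in the posterior palate, with a median of 0.22. Among all genes 25.6% rose and 24.0% fell in the anterior palate, against 17.3% and 11.7% in the posterior palate. With the length and GC trend removed 10 rose and 4 fell in the anterior palate, where 32.0% of all genes were called, and 5 rose and 2 fell in the posterior palate, where 17.8% were. Sos1, an exchange factor that loads Ras with GTP, rose to 78.4 ± 5.58 CPM in TAM_AP, against 44.7 ± 6.10 CPM in con_AP (1.75-fold, edgeR adjusted p = 5.1e-06), and had a log2 value of 0.07 with the trend removed. Crkl, an SH2 adaptor, rose 1.51-fold in the anterior palate and 1.30-fold in the posterior palate, and stayed called with the trend removed, at 0.26 and 0.16 on the log2 scale. Rasa1, the Ras GTPase-activating protein that docks on the beta receptor, rose 1.77-fold in the anterior palate and had 0.38 with the trend removed. Pik3r1, the regulatory subunit of PI3-kinase, rose 1.67-fold and had 0.08 with the trend removed. The 3 anterior falls became 1 without TAM_AP replicate 2 or con_AP replicate 3, and the 0 posterior falls became 2 without TAM_AP replicate 2.

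In the cascade from Ras to ERK (9 tested) 5 genes rose and 3 fell in the anterior palate, and 4 rose and 3 fell in the posterior palate, where 25.6% of all tested genes rose and 24.0% fell in the anterior palate and 17.3% rose and 11.7% fell in the posterior palate. Once the length and GC trend was removed 1 was higher and 4 lower in the anterior palate. In the posterior palate 1 was higher and 2 lower. The split over all genes turned as well, in the anterior palate from 4089 higher and 3835 lower to 2492 and 2583. In the posterior palate it went from 2762 higher and 1863 lower to 1219 and 1597. Whether the list turned by more than all genes did was not tested. Braf rose 1.72-fold in the anterior palate, while Map2k2, which encodes MEK2, fell by 0.85 and Hras by 0.48 on the log2 scale. After removal of the trend Braf had 0.01, and Map2k2 and Hras stayed called at -0.33 and -0.19. The posterior counts were 1 higher and 1 lower without any of con_PP replicate 1, con_PP replicate 3 or TAM_PP replicate 1. Without TAM_PP replicate 2 they were 2 higher and 1 lower. The posterior rises were also 2 without con_AP replicate 2, TAM_AP replicate 1 or TAM_AP replicate 3.

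Genes that attenuate receptor signalling (10 tested) rose in 7 cases and fell in 0 in each part of the palate, with median log2 fold changes of 0.64 and 0.35, where 25.6% and 17.3% of all genes rose. Without the length and GC trend 2 rose and 1 fell in the anterior palate and 1 rose and 0 fell in the posterior palate, near or below the 32.0% and 17.8% of all genes called. Cbl, a ubiquitin ligase that targets activated PDGF receptors for degradation, rose to 40.7 ± 1.59 CPM in TAM_AP, against 9.55 ± 2.80 CPM in con_AP (log2 2.09 ± 0.16 SE, edgeR adjusted p = 1.1e-06, n = 3 each). In the posterior palate it rose to 39.4 ± 1.95 CPM in TAM_PP, against 15.9 ± 1.52 CPM in con_PP (log2 1.30 ± 0.15 SE, edgeR adjusted p = 0.00022). With the trend removed Cbl kept log2 fold changes of 1.37 and 0.82, both called. Between the parts, the receptor phosphatase gene Ptprj was lower in the anterior palate, by 0.62 under tamoxifen and 1.06 in controls on the log2 scale.

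Immediate early genes, whose transcripts respond quickly to growth factor signalling, had 0 called members among 15 tested in either part of the palate with edgeR, where 49.7% of all genes were called in the anterior and 29.0% in the posterior palate. At an unadjusted p under 0.05 there were 0 in the anterior and 1 in the posterior palate, and DESeq2 called 0 and 1. Their median log2 fold changes were -0.39 in the anterior palate and -0.27 in the posterior palate. Some wide shifts went uncalled in all other settings run. Posterior log2 values ran from -2.13 to -0.87 for Egr2, -1.10 to -0.38 for Ier2 and 0.16 to 0.47 for Fosl2. Anterior values of Jun ran from -0.82 to -0.23. In the anterior palate Ier2 was called lower with only the 6 anterior libraries fitted (log2 -0.83, edgeR adjusted p = 0.014). Myc was called lower there without TAM_AP replicate 3 (log2 -0.52, edgeR adjusted p = 0.042). A gene of this list that was not called is thus not shown to be unchanged. The lowest adjusted p was that of Srf, which encodes serum response factor, with 127 CPM in TAM_AP and 147 CPM in con_AP (log2 -0.21, edgeR adjusted p = 0.11) and 128 CPM in TAM_PP and 155 CPM in con_PP (log2 -0.27, edgeR adjusted p = 0.066). With the trend removed Srf had 0.43 in the anterior palate and was called higher (edgeR adjusted p = 0.00088), while 1 other gene of the list was called lower there. Without TAM_AP replicate 3 as many as 2 immediate early genes were called lower in the anterior palate, and without con_AP replicate 1 there was 1. For the posterior palate 1 was called lower without any of con_AP replicate 1, TAM_AP replicate 2, TAM_AP replicate 3, con_PP replicate 2 or TAM_PP replicate 2. Srf was called lower in the posterior palate in 8 of 21 other settings, which include those 5 fits and the filter at a mean of 5 CPM (edgeR adjusted p = 0.04).

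The genes whose profile over the 12 libraries was most like each member were found by the root mean square difference between gene-centred log2 CPM, among 11269 genes with a mean of at least 5 CPM. For Pdgfra they were Ldlrad3 (0.062), Pcdh18 (0.068) and Myof (0.085), where Pdgfra itself varied by 0.396 about its mean. For Pdgfc they were Rlim (0.070), Rab27a (0.073) and Ufl1 (0.073), against a variation of 0.229. For Pdgfa they included Mrpl34 (0.099) and Krt18 (0.10), against 0.298. For Pdgfb they were Wdr81, Gas6 and Hk1 (0.080 to 0.096, against 0.185), for Pdgfrb Tsku, Sdc3 and Cmip (0.085 to 0.089, against 0.203), and for Pdgfd Sdpr, Usp29 and Pgap1 (0.203 to 0.232, against 0.544). A member that varies little has close neighbours for that reason alone, so the distances are not compared between members.

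The counts of 5 of the 6 members may include reads of overlapping genes, since the strand setting of the counting is not given in the sources used here. A newer annotation places an antisense or unclassified transcript over Pdgfa, Pdgfb, Pdgfc and Pdgfra that has no count of its own in the tables. Ddi1, inside Pdgfd, had at most 1 count in any library, and the microRNA genes within Pdgfb and Pdgfra at most 0 and 4 counts.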

How the data were processed

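RNA-seq counts of 12 palatal shelf libraries were used, 3 in each of 4 groups taken from the sample titles. The authors deposited 1 raw count per gene symbol and library, with no normalization. Build mm9, HISAT2 and StringTie are named in the submitters' processing notes, while the counter, its annotation and its use of strand are not given. Even values made up 57.1 to 60.1% of counts from 1 to 100, as when the mates of a pair are counted singly.

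Tests used edgeR 4.0.16 in R 4.3.3, with filterByExpr by group, TMM scaling and a robust quasi-likelihood fit of group means to the 12 libraries, which left 8 residual degrees of freedom. SE is the log2 fold change divided by the square root of F. For the length and GC trend, longest GENCODE M21 transcripts were matched to 23348 symbols directly and 678 by an older symbol. A surface of natural splines with 4 degrees of freedom each was fitted per library, using genes whose log2 CPM averaged over 1, and entered as an offset for 15852 genes. The fit was tested on simulated data. DESeq2 1.42.0, other scalings and filters, a block for the replicate number, fits of only the 6 libraries compared, counts divided by 2 and each library left out were alternatives. Members and gene lists were chosen with earlier results of these data known. Genes named beside the members are among the 4 with the lowest adjusted p of their list and comparison, define a cell type, or are the 3 nearest in profile to a member. Some genes that met this rule are not reported here.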

Additional observations from a re-analysis of the deposited data

How the results depend on the processing

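Of 259 member fold changes under settings other than a library left out, 236 kept their direction and side of the threshold, 13 lost and 4 gained a call, and 6 reversed. Removal of the length and GC trend left 5075 genes called for tamoxifen in the anterior and 2816 in the posterior palate, and 4905 and 2644 with the replicate block as well, against 7924 and 4625. Pdgfb then turned to 0.232 in the anterior palate (0.229 with the block), and the difference of the Pdgfrb effects between the parts to 0.006 in both fits. For that difference DESeq2 called 183 genes, and removal of the trend with the block 1, where edgeR called 0. With a mean of at least 5 CPM required, only 1 member was called in the posterior palate, because Pdgfd was then not tested and Pdgfc was not called (edgeR adjusted p = 0.054). Pdgfc between the parts under tamoxifen, at 0.003, was -0.004 with that filter and -0.002 with the block.

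With each library left out in turn, 325 of 360 such values kept direction and call. Members called were 4 in the anterior palate, 1 to 3 in the posterior palate, 0 for the difference, 1 to 3 between the parts under tamoxifen and 2 to 4 in controls. Genes called were 6553 to 7961, 2714 to 5485, 0 to 6, 2090 to 3089 and 2483 to 4342 in the same order, and the posterior count moved by over 1.5 times, to 2714 without con_PP replicate 1, 2830 without con_PP replicate 3 and 3045 without TAM_PP replicate 1. Values that changed sign ran from -0.002 to 0.172 for Pdgfrb in the anterior palate, from -0.072 to 0.116 for Pdgfrb and from -0.044 to 0.307 for Pdgfd in the difference, and from -0.094 to 0.101 for Pdgfc between the parts under tamoxifen. The cause of these changes was not tested.

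The labels do not say what the replicate numbers mark or whether an anterior and a posterior library came from the same embryo, and the fits treat the libraries as unpaired. Deviations of the 18 pairs with the same number correlated at -0.058 to 0.147, with 2 of them over 0.1, and those of the 36 other pairs at -0.236 to 0.129. With the replicate block 7800, 4561, 0, 2811 and 3711 genes were called in the order above, and among the members only the posterior call of Pdgfc was lost (edgeR adjusted p = 0.053). Depth limits Pdgfd most, at 56 to 252 counts per library.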
